A study of Mus musculus with 7 samples.

Results

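The genes described are 41 that encode complement and coagulation proteins, 20 of complement and 21 of coagulation and its control, measured in the livers of 7 mice. They were chosen by symbol, and a gene entered where a probe carried exactly that symbol in the array's annotation. Probes were found for 35 of the 41, 16 of complement and 19 of coagulation, among 16468 named genes and 22218 features in all. C1ra, C1rl, C3, Cfp, Fga and Cpb2 were without a probe of that symbol and are not analysed here. The value of C1s1 is the mean of 3 probes, and each other measured gene had 1.

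The animals were 4 wild-type mice (1 female and 3 males) and 3 mice transgenic for Zfp90, a gene of the zinc finger family (1 female and 2 males), with the wild-type mice given as littermates. RNA of each animal's liver, in Cy5, was compared on a 2-colour array with a shared reference in Cy3, pooled from the livers of 4 male and female wild-type mice. Age, strain, diet, the transgene's promoter and the number of founder lines are not given in the sources used here. Every value below is a log2 ratio of animal to pool unless a fold is given. A ratio says how an animal differs from the pool and not how abundant a transcript is, so genes are not ranked by level and the tissue label could not be checked by marker levels.

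Complement and coagulation are 2 cascades of plasma proteases and cofactors, most of them made and secreted by hepatocytes. In complement, recognition proteins such as the mannose-binding lectins activate attached proteases. These build convertases that split C3, and the terminal components C5b to C9 then assemble into the pore known as the membrane attack complex. In coagulation, tissue factor with factor VII and the contact system with factor XII lead to factor X and thrombin, which turns fibrinogen into fibrin. Antithrombin, heparin cofactor II and protein C with protein S limit clotting, and plasmin dissolves fibrin.

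Zfp90 itself read 0.34 in the transgenic female and 0.58 and 0.45 in males 1 and 2 of that genotype. Wild-type males 2, 3 and 4 read -0.15, -0.29 and -0.11, with 0.37 on the array with the wild-type female label. That array therefore read like the transgenic animals for the gene of the transgene, and the genotype differences of the members are also given for the 5 males alone, which leave it out. It is the only array of a wild-type female, so its sex, its label and the animal itself cannot be told apart as the source of that value. The genotype difference of Zfp90 was 0.48 ± 0.15 (SE) with sex in the model, with an adjusted p of 0.678 in limma, and 0.69 ± 0.11 (SE) in the males alone (adjusted p = 0.206). The plain difference of the group means, which takes no account of sex, was 0.50, with a two-sided exact permutation p of 0.0857 over 35 splits of the animals, where 0.0286 is the smallest possible. Kdm5d, a Y-linked gene, read -3.22 and -2.54 on the female arrays and 0.14 to 0.66 on the male arrays, so a positive value was taken to mean more RNA in the animal than in the pool. The lowest of the correlations between arrays over all probes was -0.50, and 3 pairs lay under -0.3. If all ratios ran the other way, the differences below would have the opposite sign and the same p.

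Across the 7 animals most of the 35 genes stayed close to the pool, and 3 genes of the terminal complement pathway did not. The spread from the lowest to the highest animal was 0.10 in Fgg, the gamma chain of fibrinogen, and 0.17 in Serpind1, which encodes heparin cofactor II. It reached 2.53 in C9, 2.69 in C8b and 3.79 in C8a, in each case because both females lay far below the pool. Outside these 3 genes no member spanned more than the 0.96 of Proz, a vitamin K-dependent cofactor in the inhibition of factor Xa.

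**Figure D1:**
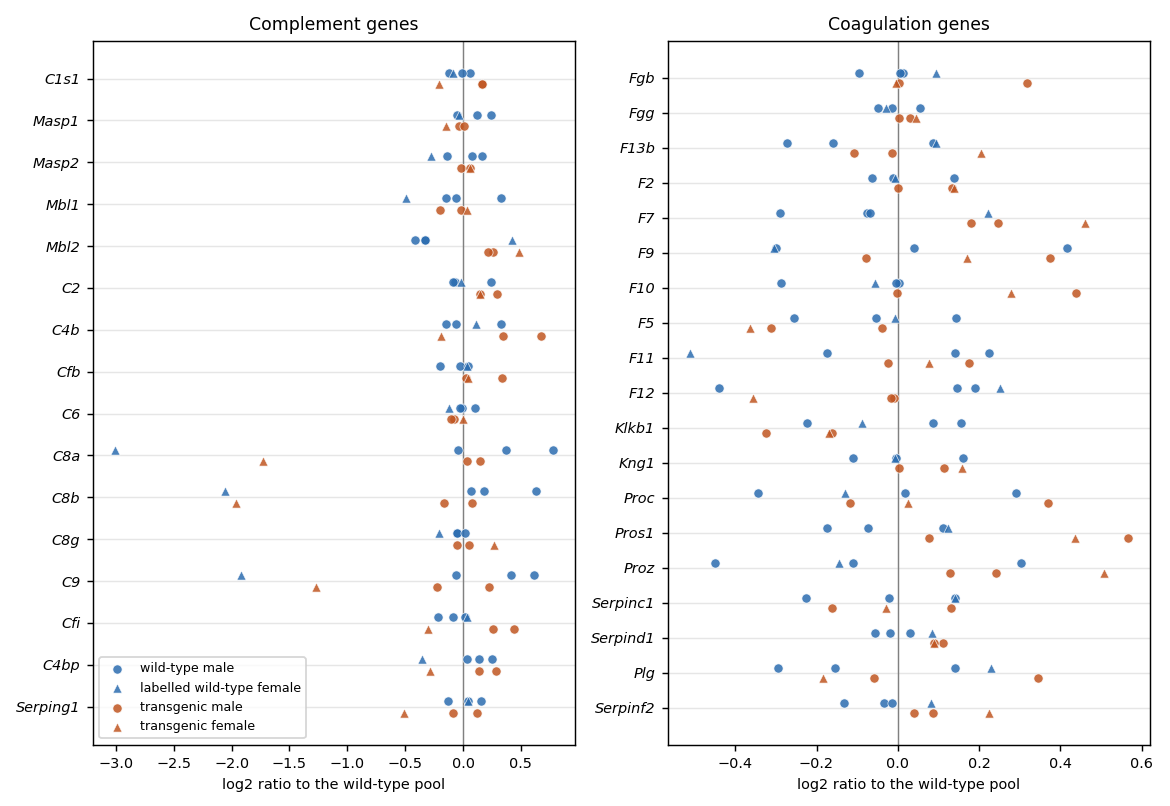
Log2 ratio to the wild-type pool (x axis) of the 16 measured complement genes (left) and 19 measured coagulation genes (right) in each of 7 animals, with circles for males, triangles for females, blue for wild type and orange for transgenic. C8a, C8b and C9 lay at -1.27 or below in both females, and the axis on the right is narrower than that on the left.

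Transgenic and wild-type livers did not differ past the threshold in any complement or coagulation gene. In limma, with sex in the model, 0 of the 35 measured members were called at an adjusted p under 0.05, as were 0 of all 22218 features (0%). At an unadjusted p under 0.05 there were 4 members, Mbl2, F7, Pros1 and F10, each with a higher mean in transgenic animals, beside 6.91% of all features. The complement genes had a median difference, transgenic minus wild type, of 0.09 with 11 of 16 above 0. Of the coagulation genes 15 of 19 lay above 0, at a median of 0.08. Over all features the median was -0.01, and 48.2% lay above 0.

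Among the genes that start complement activation, Mbl2, a mannose-binding lectin, had the lead. It read 0.48 in the transgenic female and 0.26 and 0.22 in the transgenic males, -0.33, -0.42 and -0.33 in the wild-type males and 0.42 on the array with the wild-type female label. Both transgenic males thus lay above all 3 wild-type males, while the females read alike. The difference was 0.44 ± 0.12 (SE; 95% interval 0.15 to 0.72), or 1.35-fold, with an unadjusted p of 0.00787 and an adjusted p of 0.665 in limma. In the males alone it was 0.59 ± 0.10 (SE), or 1.51-fold (adjusted p = 0.213). Mbl1, the other mannose-binding lectin, read 0.03 in the transgenic female, -0.02 and -0.20 in the transgenic males, -0.06, 0.33 and -0.15 in the wild-type males and -0.50 on the array with the wild-type female label. Its difference was 0.05 ± 0.18 (SE), and -0.15 ± 0.17 (SE) in the males alone. Masp1 and Masp2, the proteases carried by these lectins, differed by -0.12 ± 0.10 and 0.09 ± 0.12 (SE), and C1s1, a protease of the classical pathway, by 0.10 ± 0.10 (SE). The 3 probes of C1s1 differed by 0.25, 0.03 and 0.02. C1s1 has a near copy in C1s2, and since probe sequences were not used here the reads of such pairs are uncertain.

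Macrophage markers, as a median, lay on the same side of 0 as Mbl2 in every animal, though in a different order. Zfp90 and F7 had these same signs. Mbl2 and F7 were named for a small p by genotype in these same animals, which favours such a pattern. The share of all features with these signs was not counted. The median of 15 measured macrophage markers was 0.82 on the array with the wild-type female label and 0.43 in the transgenic female. It was -0.68, -0.67 and -0.13 in the wild-type males and 0.38 and 0.19 in the transgenic males. By genotype, 13 of the 15 markers lay above 0, with a median difference of 0.46 (0.81 in the males alone) and 0 called. The 13 measured hepatocyte markers had a median difference of 0.02, with animal medians from -0.10 to 0.02. The part of macrophage RNA in the Mbl2 difference was not tested, and in liver RNA more cells of a type and more transcript per cell cannot be told apart.

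The 3 measured genes of the C3 convertases all had positive differences. C2, which gives the protease of the classical and lectin pathway convertase, read 0.14, 0.29 and 0.15 in the transgenic female and males, 0.25, -0.07 and -0.09 in the wild-type males and -0.01 on the array with the wild-type female label. The groups overlapped, with a difference of 0.18 ± 0.11 (SE). Cfb, factor B, the protease of the alternative pathway convertase, read 0.04, 0.34 and 0.03 in the transgenic female and males, -0.02, 0.04 and -0.20 in the wild-type males and 0.04 on the array with the wild-type female label. Its difference of 0.17 ± 0.12 (SE) came mostly from transgenic male 1. C4b, the source of the C4b fragment that holds C2, read 0.67 and 0.35 in the transgenic males and 0.33, -0.06 and -0.14 in the wild-type males. In the females it went the other way, at -0.19 in the transgenic and 0.11 on the array labelled wild type. Its difference was 0.24 ± 0.19 (SE) over all animals and 0.47 ± 0.18 (SE) in the males (adjusted p = 0.674), and 0.065 over the animals left without transgenic male 1. C4b has a near copy in C4a, and C2 and Cfb are neighbours on chromosome 17.

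Of the 3 complement regulators, Cfi, the protease that inactivates C3b and C4b, had differences of opposite sign in the sexes. It read 0.44 and 0.26 in the transgenic males and -0.09, 0.02 and -0.21 in the wild-type males, without overlap. The transgenic female was at -0.30 and the array with the wild-type female label at 0.04. The difference was 0.21 ± 0.16 (SE) over all animals and 0.44 ± 0.12 (SE) in the males, or 1.36-fold (adjusted p = 0.466), and 0.07 over the animals left without transgenic male 1. Serping1, the C1 inhibitor, read -0.51 in the transgenic female, -0.08 and 0.12 in the transgenic males, 0.15, -0.13 and 0.04 in the wild-type males and 0.04 on the array with the wild-type female label. Its difference of -0.17 ± 0.14 (SE) was carried by the transgenic female, and in the males alone it was -0.00 ± 0.13 (SE). C4bp, a cofactor of factor I, had a difference of 0.07 ± 0.09 (SE).

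Genotype differences in the 5 terminal genes had a median of -0.04, with 2 above 0. C8g, the gamma chain of C8, read 0.27, -0.05 and 0.05 in the transgenic female and males, -0.06, -0.06 and 0.02 in the wild-type males and -0.21 on the array with the wild-type female label, a difference of 0.16 ± 0.11 (SE). C8b differed by -0.21 ± 0.17, C8a by 0.18 ± 0.32, C9 by -0.04 ± 0.24 and C6 by -0.05 ± 0.09 (SE). The direction in C8a turned to -0.27 in the males alone and to -0.08 after quantile normalization.

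**Figure D2:**
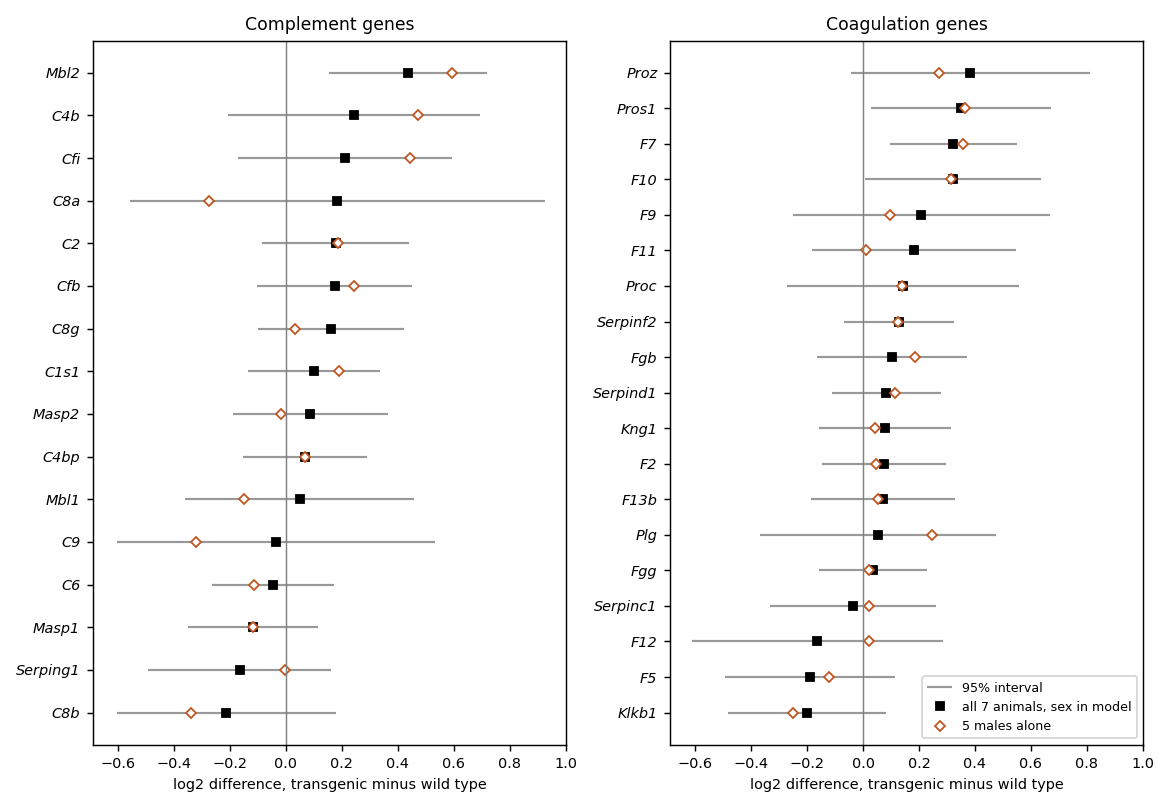
Difference between transgenic and wild-type animals on the log2 scale (x axis) for each measured complement gene (left) and coagulation gene (right), with squares for the model over 7 animals with sex, lines for its 95% interval and open diamonds for the 5 males alone. The intervals of Mbl2 (0.15 to 0.72), F7, Pros1 and F10 lie above 0, and no adjusted p passed 0.05.

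All 4 vitamin K-dependent clotting proteases had positive genotype differences, with a median of 0.26, and F7 had the smallest p of the coagulation genes. F7, factor VII, read 0.46 in the transgenic female, 0.25 and 0.18 in the transgenic males, -0.08, -0.07 and -0.29 in the wild-type males and 0.22 on the array with the wild-type female label. The males did not overlap, and only that female array reached into the transgenic range. The difference was 0.32 ± 0.10 (SE; 95% interval 0.10 to 0.55), or 1.25-fold, with an adjusted p of 0.677 in limma, and 0.36 ± 0.12 (SE) in the males. F10, factor X, read 0.28, 0.44 and -0.00 in the transgenic female and males, 0.00, -0.01 and -0.29 in the wild-type males and -0.06 on the array with the wild-type female label. Transgenic male 2 lay within the wild-type range, and the difference was 0.32 ± 0.13 (SE; adjusted p = 0.721), or 0.19 without transgenic male 1. F9, factor IX, differed by 0.21 ± 0.20 and F2, prothrombin, by 0.08 ± 0.10 (SE).

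Of the 5 measured anticoagulant genes 4 had positive genotype differences, with a median of 0.14. Pros1, protein S, read 0.44, 0.57 and 0.08 in the transgenic female and males, -0.17, 0.11 and -0.07 in the wild-type males and 0.12 on the array with the wild-type female label. Its difference was 0.35 ± 0.14 (SE; 95% interval 0.03 to 0.67), or 1.27-fold (adjusted p = 0.72), and transgenic male 2 overlapped with wild type. Without transgenic male 1 it was 0.20. Proz read 0.51, 0.24 and 0.13 in the transgenic female and males, -0.11, 0.30 and -0.45 in the wild-type males and -0.15 on the array with the wild-type female label, a difference of 0.38 ± 0.18 (SE; adjusted p = 0.739). Wild-type male 3 lay above both transgenic males in that gene. Proc, protein C, differed by 0.14 ± 0.18 (SE). F7, F10 and Proz follow one another on chromosome 8 in the gene order of assembly GRCm38.p6, with no other annotated protein-coding gene between them. Of the anticoagulant serpins, Serpind1 read 0.09, 0.11 and 0.09 in the transgenic female and males, 0.03, -0.06 and -0.02 in the wild-type males and 0.08 on the array with the wild-type female label. It was the only member whose genotypes did not overlap, with a difference of 0.08 ± 0.08 (SE). Among all features 3.17% had every transgenic animal higher and 2.84% every one lower. Serpinc1, antithrombin, differed by -0.04 ± 0.13 (SE).

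**Figure D3:**
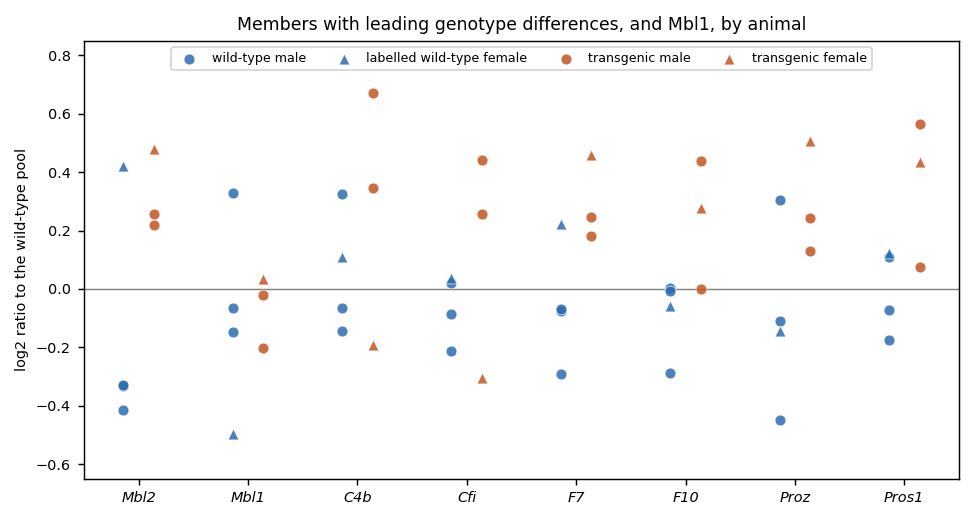
Log2 ratio to the wild-type pool (y axis) of 8 members in each of 7 animals, with circles for males, triangles for females, blue for wild type and orange for transgenic. In Mbl2 and F7 the transgenic males lie above the wild-type males and the array with the wild-type female label lies with the transgenic animals, while in C4b and Cfi the transgenic female lies lowest.

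Factor V, factor XI and the contact system had no common direction. F5, factor V, the cofactor of factor Xa, read -0.36, -0.31 and -0.04 in the transgenic female and males, 0.14, -0.26 and -0.05 in the wild-type males and -0.01 on the array with the wild-type female label, a difference of -0.19 ± 0.13 (SE). F11, factor XI, read 0.08, 0.18 and -0.02 in the transgenic female and males, 0.14, 0.22 and -0.18 in the wild-type males and -0.51 on the array with the wild-type female label. Its difference of 0.18 ± 0.16 (SE) was 0.01 ± 0.15 (SE) in the males alone. Klkb1, plasma prekallikrein, the neighbour of F11 on chromosome 8, read -0.17, -0.32 and -0.16 in the transgenic female and males, 0.09, -0.22 and 0.16 in the wild-type males and -0.09 on the array with the wild-type female label. The groups overlapped and the difference was -0.20 ± 0.12 (SE). F12, factor XII, differed by -0.16 ± 0.19 (SE) and Kng1, a kininogen with a near copy in Kng2, by 0.08 ± 0.10 (SE).

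Of the chains of fibrinogen, the substrate of the cascade, Fgg had the narrowest spread of all members. It read 0.04, 0.03 and 0.00 in the transgenic female and males, -0.01, 0.06 and -0.05 in the wild-type males and -0.03 on the array with the wild-type female label. Its difference was 0.04 ± 0.08 (SE), with a 95% interval from -0.16 to 0.23. Fgb, the beta chain, read -0.00, 0.00 and 0.32 in the transgenic female and males, -0.10, 0.01 and 0.01 in the wild-type males and 0.09 on the array with the wild-type female label. Transgenic male 2 stood alone, and the difference of 0.10 ± 0.11 (SE; 95% interval -0.16 to 0.37) was -0.02 without it. F13b, the carrier subunit of the fibrin-linking factor XIII, differed by 0.07 ± 0.11 (SE). Of the fibrinolytic genes, Serpinf2, the plasmin inhibitor alpha-2-antiplasmin, read 0.22, 0.04 and 0.09 in the transgenic female and males, -0.03, -0.13 and -0.01 in the wild-type males and 0.08 on the array with the wild-type female label, a difference of 0.13 ± 0.08 (SE). Plg, plasminogen, differed by 0.05 ± 0.18 (SE).

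In the 5 males alone, Mbl2 had the smallest p among the members. Of the coagulation genes 17 of 19 had positive differences, with a median of 0.10, and of the complement genes 8 of 16, with a median of 0.01. Over all features the median was -0.02 and 44.6% lay above 0. No member was called, beside 7 features in all (0.0315%). At an unadjusted p under 0.05 there were 4 members, Mbl2, Cfi, F7 and C4b, all higher in transgenic males, beside 6.96% of features. Transgenic males lay above all wild-type males in 7 members (C1s1, Mbl2, C4b, Cfi, F7, Serpind1 and Serpinf2) and below all of them in C6. With 2 males against 3, 11.2% of all features lay above and 11.4% below in this way. The sign of the difference turned from the model over all animals in 5 members, to -0.15 in Mbl1, -0.02 in Masp2, -0.27 in C8a, 0.02 in F12 and 0.02 in Serpinc1. Of the other complement genes, the difference in the males was 0.19 in C1s1, -0.12 in Masp1, 0.19 in C2, 0.24 in Cfb, 0.07 in C4bp, -0.12 in C6, -0.34 in C8b, 0.03 in C8g and -0.32 in C9. Of the clotting factors it was 0.05 in F2, 0.10 in F9, 0.31 in F10, -0.12 in F5, -0.25 in Klkb1, 0.04 in Kng1, 0.19 in Fgb, 0.02 in Fgg and 0.05 in F13b. Of the inhibitors and plasminogen it was 0.37 in Pros1, 0.27 in Proz, 0.14 in Proc, 0.12 in Serpind1, 0.12 in Serpinf2 and 0.25 in Plg. Between the females, 11 of 16 complement genes and 13 of 19 coagulation genes were higher in the transgenic animal, beside 52.2% of all features.

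Whether the genotype difference itself differed between the sexes was tested as an interaction, with 1 female per genotype and the spread taken from the males. No member passed, beside 0.072% of features. At an unadjusted p under 0.05 there were 3 of the 35 members, a share close to the 8.42% of all features. In Mbl2 the genotype difference was 0.59 in the males and 0.06 between the females (interaction -0.54 ± 0.18 SE, adjusted p = 0.512). It turned from 0.44 in the males to -0.34 between the females in Cfi (-0.78 ± 0.23 SE, adjusted p = 0.426). In C8a it turned from -0.27 to 1.28 (1.56 ± 0.43 SE, adjusted p = 0.405). The C8a value rests on the females reading -3.01 and -1.73. All 3 values rest on 1 female per genotype, and in Mbl2 the array with the wild-type female label read close to the transgenic animals.

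The widest differences among the members were between the sexes, and those called were in the alpha and beta chains of C8. C8a, which encodes the alpha chain, read -3.01 on the array with the wild-type female label and -1.73 in the transgenic female. The males read 0.37, 0.78 and -0.05 in wild type and 0.15 and 0.04 in transgenic animals. C8b, the beta chain, read -2.05 and -1.96 in the same females, 0.07, 0.63 and 0.18 in the wild-type males and 0.08 and -0.17 in the transgenic males. In both genes the female of either genotype lay below every male. C8a was 6.25-fold lower in females (difference -2.64 ± 0.35 SE, adjusted p = 0.0322 in limma) and C8b 4.42-fold lower (-2.14 ± 0.18 SE, adjusted p = 0.00374). These were the 2 complement genes called, both lower in females, where 0.185% of all features were called lower and 0.167% higher. No coagulation gene was called. Both genes are adjacent on chromosome 4.

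C9, the pore-forming subunit that C8 recruits, read -1.91 on the array with the wild-type female label and -1.27 in the transgenic female. The wild-type males read -0.06, 0.42 and 0.61 and the transgenic males -0.22 and 0.22. It was 3.44-fold lower in females (-1.78 ± 0.27 SE), short of the threshold at an adjusted p of 0.0563. By size of p, C8b, C8a and C9 ranked 28, 63 and 84 among the 22218 features. C6, which binds C5b before C8 joins, read -0.12 and -0.00 in the females and -0.11 to 0.10 in the males, a sex difference of -0.04 ± 0.10 (SE; 95% interval -0.27 to 0.20). C8g, whose product pairs with the alpha chain, read -0.21 and 0.27 in the females and -0.06 to 0.05 in the males, a sex difference of 0.03 ± 0.12 (SE; 95% interval -0.25 to 0.32).

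These calls rest on 2 females. Without the array with the wild-type female label neither gene was called (adjusted p = 0.142 for C8a and 0.0859 for C8b), and the difference of C8a was then -1.82. Without the transgenic female it was -3.38 (adjusted p = 0.00624). C8a also missed the threshold without wild-type male 2 (adjusted p = 0.0962), wild-type male 4 (0.0747), transgenic male 1 (0.0812) or transgenic male 2 (0.0724), and after quantile normalization (0.0796). C9 passed without the transgenic female (adjusted p = 0.0265), with no genotype term (0.0336) and among named genes alone (0.0486). Over all alternatives run, the highest adjusted p was 0.142 for C8a, 0.0859 for C8b and 0.351 for C9, each without the array with the wild-type female label, and the lowest was 0.00624, 0.0014 and 0.0265. The difference stayed below 0 in each of these fits.

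**Figure D4:**
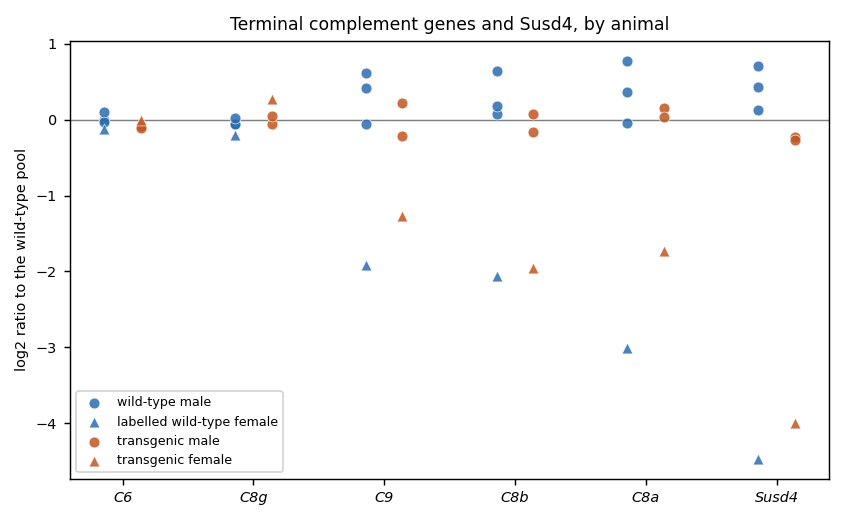
Log2 ratio to the wild-type pool (y axis) of the 5 terminal complement genes and of Susd4 in each of 7 animals, with circles for males, triangles for females, blue for wild type and orange for transgenic. Both females lie at -1.27 or below in C9, C8b, C8a and Susd4, whereas C6 and C8g stay between -0.21 and 0.27 in all animals.

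The 250 bases before the transcription start of the terminal genes are shown because C8a and C8b were called between the sexes, beside C9, which came near the threshold, and C6 and C8g, whose sex differences were near 0. They are RefSeq sequence of assembly GRCm38.p6, each written 5′ to 3′ on the gene's own strand: C8a at chr4:104876399-104876648 on the minus strand, C8b at chr4:104766067-104766316 on the plus strand, C9 at chr15:6445096-6445345 on the plus strand, C6 at chr15:4726960-4727209 on the plus strand and C8g at chr2:25501720-25501969 on the minus strand. Capitals mark matches to motifs for liver and growth hormone-regulated factors.
C8a: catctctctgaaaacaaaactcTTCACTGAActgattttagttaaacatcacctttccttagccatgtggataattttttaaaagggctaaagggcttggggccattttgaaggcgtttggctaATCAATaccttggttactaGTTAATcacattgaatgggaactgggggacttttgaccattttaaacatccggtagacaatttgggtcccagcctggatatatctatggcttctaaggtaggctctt
C8b: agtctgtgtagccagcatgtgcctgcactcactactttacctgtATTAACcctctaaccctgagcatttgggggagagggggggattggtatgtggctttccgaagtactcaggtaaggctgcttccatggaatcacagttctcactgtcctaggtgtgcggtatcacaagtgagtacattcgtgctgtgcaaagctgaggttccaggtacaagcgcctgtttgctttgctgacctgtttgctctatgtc
C9: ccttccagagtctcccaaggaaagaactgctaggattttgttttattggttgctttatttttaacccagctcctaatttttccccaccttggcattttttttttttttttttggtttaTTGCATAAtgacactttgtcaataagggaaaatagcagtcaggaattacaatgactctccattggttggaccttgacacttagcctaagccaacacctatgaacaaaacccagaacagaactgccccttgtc
C6: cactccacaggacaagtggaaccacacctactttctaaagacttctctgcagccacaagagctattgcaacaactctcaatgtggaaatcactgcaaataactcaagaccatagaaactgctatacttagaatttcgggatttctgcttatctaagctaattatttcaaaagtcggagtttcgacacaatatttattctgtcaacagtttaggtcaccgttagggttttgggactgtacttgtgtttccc
C8g: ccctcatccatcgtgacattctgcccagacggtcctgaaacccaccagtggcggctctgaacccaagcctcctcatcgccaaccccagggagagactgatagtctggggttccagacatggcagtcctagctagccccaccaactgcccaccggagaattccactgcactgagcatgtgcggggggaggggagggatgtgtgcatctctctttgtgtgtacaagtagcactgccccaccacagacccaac

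The motifs, searched on both strands, were chosen after the values were seen: TTCNNNGAA for STAT proteins, GTTAAT for part of an HNF1 site, TTGCNNAA for C/EBP and ATCAAT for HNF6. C8a held TTCACTGAA at -228 to -220, ATCAAT at -126 to -121 and GTTAAT at -107 to -102 from the start. C8b held the HNF1 motif in reverse, ATTAAC, at -206 to -201, and C9 held TTGCATAA at -132 to -125. C6 and C8g held none of the 4 in this window, and no matches overlapped. C8g has 2 annotated starts, and the window shown is that of the most upstream one. No test set the genes with matches against those without. Over 32851 windows of the same length the shares with a match were 7.02% for STAT, 6.43% for HNF1, 9.56% for C/EBP and 6.72% for HNF6. Among the 26 measured members with a window, 5, 6, 6 and 5 held them in any window of the gene. A gene with several starts has several windows, so these counts per gene are not comparable with the shares per window. A match is a run of letters and not a measured site.

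Of the 16 complement genes 14 had a sex difference below 0 and 2 above, where 52.3% of all features lay above 0. Their median sex difference was -0.21, beside 0.01 over all features. At an unadjusted p under 0.05 there were 5 complement genes and 1 coagulation gene, beside 9.23% of features. C4bp read -0.35 and -0.28 in the females, 0.25, 0.03 and 0.14 in the wild-type males and 0.14 and 0.28 in the transgenic males. It was 1.41-fold lower in females without overlap (-0.49 ± 0.10 SE, adjusted p = 0.161) and did not pass. Mbl2 was on the opposite side, at 0.42 and 0.48 in the females and -0.42 to 0.26 in the males, 1.44-fold higher in females (0.53 ± 0.13 SE, adjusted p = 0.243). Mbl1 differed by -0.21 ± 0.19 (SE) between the sexes. The macrophage marker medians given above were also higher in the females, by a median of 0.80 over 15 of 15 markers with 0 called, and their part in the sex difference of Mbl2 was not tested. Beside the lower C8a, C8b and C9 of the females, the hepatocyte markers had a median sex difference of -0.10 with 0 called.

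The promoters of the mannose-binding lectins are given because Mbl2 had the smallest p for genotype among the members, with Mbl1, the other lectin, for comparison. No test set the lectins against each other. Mbl2 lies at chr19:30232678-30232927 on the plus strand and Mbl1 at chr14:41151206-41151455 on the plus strand, in the same assembly, and neither window held any of the 4 motifs.
Mbl2: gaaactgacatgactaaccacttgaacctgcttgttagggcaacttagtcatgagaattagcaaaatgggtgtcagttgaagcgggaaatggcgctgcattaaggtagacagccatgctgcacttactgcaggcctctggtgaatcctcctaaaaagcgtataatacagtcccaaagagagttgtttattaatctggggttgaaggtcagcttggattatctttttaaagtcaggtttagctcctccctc
Mbl1: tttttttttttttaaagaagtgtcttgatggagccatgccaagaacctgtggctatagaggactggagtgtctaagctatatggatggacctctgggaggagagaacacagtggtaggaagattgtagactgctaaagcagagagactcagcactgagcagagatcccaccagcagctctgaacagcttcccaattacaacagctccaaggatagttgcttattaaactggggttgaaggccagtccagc

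Coagulation genes showed little difference between the sexes, with a median of 0.02 and 11 of 19 above 0, beside 52.3% of all features. F7 read 0.22 and 0.46 in the females against -0.29 to 0.25 in the males (0.31 ± 0.11 SE, adjusted p = 0.417). F13b was at 0.10 and 0.20 in the females, -0.27, 0.09 and -0.16 in the wild-type males and -0.01 and -0.11 in the transgenic males, so the females lay above all males (0.24 ± 0.12 SE, adjusted p = 0.639). F11 differed by -0.30 ± 0.17 (SE), and without the array with the wild-type female label by 0.00. Serpinf2 and Pros1 differed by 0.15 ± 0.09 and 0.14 ± 0.15 (SE). Females lay above all males in Mbl2 and F13b and below all males in C8a, C8b, C9 and C4bp, where over all features 6.04% lay above and 6.83% below.

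**Figure D5:**
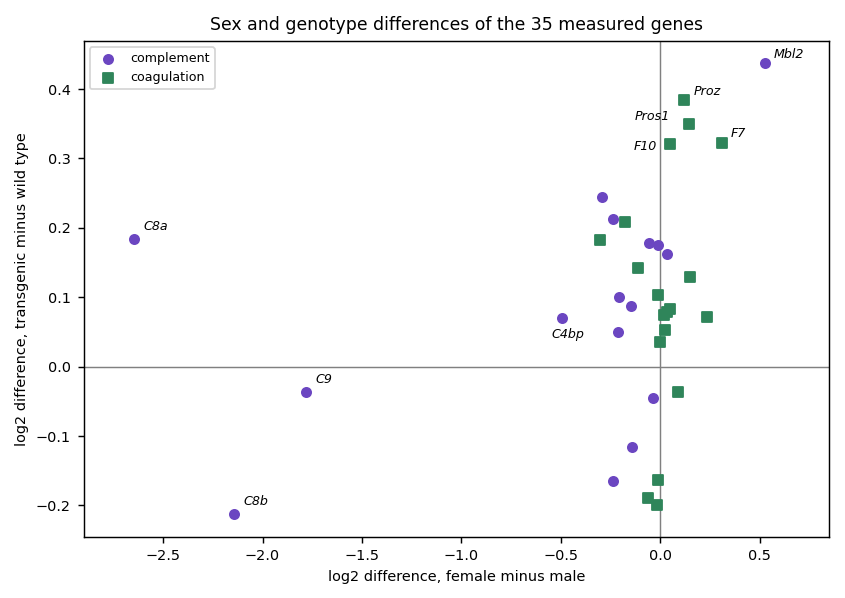
Sex difference (female minus male, x axis) against genotype difference (transgenic minus wild type, y axis), both on the log2 scale from the model over 7 animals, with circles for 16 complement and squares for 19 coagulation genes. C8a, C8b and C9 stand apart on the left, between -2.64 and -1.78, and Mbl2 has the highest value on both axes.

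Other genes of complement were taken from a list of 32, of which 23 were measured. By genotype 0 were called, with a median of 0.05 and 16 above 0. C1qa, a chain of the recognition protein C1q that macrophages make, read 0.84, 1.0 and 0.40 in the transgenic female and males, -0.68, -0.68 and -0.32 in the wild-type males and 0.82 on the array with the wild-type female label. The difference was 0.90 ± 0.27 (SE; adjusted p = 0.677), 1.26 ± 0.21 (SE) in the males alone and 0.58 without transgenic male 1. The probe of C1qb differed by -0.05 ± 0.12 and that of C1qc by 0.61 ± 0.28 (SE), so the 3 chains of 1 protein did not read alike. Colec10, a liver collectin, differed by 0.24 ± 0.09 and Clu, clusterin, an inhibitor of the terminal complex, by -0.45 ± 0.19 (SE), with 0.22 and -0.32 in the males. By sex 1 of the 23 was called, Susd4, a membrane inhibitor of complement. It read -4.47 on the array with the wild-type female label and -3.99 in the transgenic female, against 0.43, 0.12 and 0.71 in the wild-type males and -0.22 and -0.27 in the transgenic males. That is 20.4-fold lower in females (-4.35 ± 0.26 SE, adjusted p = 0.000555). Hc, which encodes C5, and C7 differed between the sexes by -0.28 ± 0.09 and -0.50 ± 0.20 (SE; adjusted p = 0.376 and 0.499). Vsig4, a complement receptor of liver macrophages, was at 1.10 ± 0.29 (SE; adjusted p = 0.267).

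Of 34 other genes of coagulation and fibrinolysis, 30 were measured, with 0 called by genotype (median 0.03, 17 above 0) and 0 by sex (median 0.08). Gas6, a vitamin K-dependent ligand related to protein S, read 0.68, 0.88 and 0.35 in the transgenic female and males, 0.06, -0.27 and -0.07 in the wild-type males and 0.27 on the array with the wild-type female label. The genotypes did not overlap, with a difference of 0.62 ± 0.16 (SE), or 1.54-fold (adjusted p = 0.652), and 0.71 in the males. Procr, the endothelial protein C receptor, read 0.56, 0.49 and 0.26 in the transgenic female and males, -0.25, -0.27 and -0.21 in the wild-type males and 0.44 on the array with the wild-type female label (0.47 ± 0.12 SE, adjusted p = 0.653; 0.62 in the males). Mug1, a murinoglobulin, differed by -0.36 ± 0.13 (SE) by genotype (-0.43 in the males) and -0.83 ± 0.14 (SE; adjusted p = 0.0858) by sex. Serpina5, the protein C inhibitor, differed by -0.76 ± 0.13 (SE; adjusted p = 0.0935) by sex.

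Genes for vitamin K and for secretion of clotting factors, 7 of 8 measured, had a median genotype difference of -0.03, with 3 above 0 and 0 called by genotype or sex. Nqo1, a quinone reductase, differed by 0.30 ± 0.10 (SE) by genotype (0.39 in the males) and 0.63 ± 0.11 (SE; adjusted p = 0.102) by sex. Ggcx, the carboxylase that vitamin K-dependent factors need, differed by 0.23 ± 0.20 (SE) by genotype (0.22 in the males) and -0.55 ± 0.22 (SE) by sex. Vkorc1l1, a vitamin K reductase, differed by -0.21 ± 0.17 (SE) by genotype, and by -0.03 in the males. Mcfd2, a carrier of factors V and VIII, differed by -0.46 ± 0.29 (SE), which rests on the transgenic female at -1.13 and was 0.02 in the males.

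Several complement and coagulation proteins are acute phase proteins, so 20 acute phase genes outside the members were read beside them, of which 19 were measured. Their median genotype difference was 0.15 with 13 above 0 and 0 called. In the males it was 0.34, while between the females, transgenic minus labelled wild type, it was -0.20. At an unadjusted p under 0.05 in limma there were 5 of the 19 over all animals, beside 6.91% of all features. In the males alone there were 10 of the 19, beside 6.96% of all features. All of these were higher in transgenic animals. Saa2, a serum amyloid A, differed by 1.63 ± 0.34 (SE; adjusted p = 0.538), Steap4, a metalloreductase, by 0.79 ± 0.14 (SE; adjusted p = 0.475) and Orm3, an orosomucoid, by 0.26 ± 0.08 (SE; adjusted p = 0.677). In the males these were 2.09 ± 0.28, 0.99 ± 0.10 and 0.26 ± 0.10 (SE), with adjusted p of 0.121, 0.0789 and 0.658. Apcs, serum amyloid P, was 0.99 ± 0.30 (SE; adjusted p = 0.349) between the sexes.

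Markers of other cell types had 0 calls by genotype. Median genotype differences were 0.02 over 14 endothelial, -0.01 over 10 platelet, 0.19 over 5 red cell, 0.09 over 10 exocrine pancreas and -0.00 over 9 neutrophil markers. By sex the medians were 0.23, 0.02, -0.13, 0.01 and 0.21. The exocrine pancreas list held 1 call by sex, Cela1, an elastase (-2.22 ± 0.28 SE, adjusted p = 0.0255). The lists of other cell types overlap with those of the pathways, since C1qa, C1qb, C1qc and Vsig4 are also macrophage markers and Vwf an endothelial marker. The part of these cell types in the values of the members was not tested.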

How the data were processed

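Liver RNA of 7 mice was measured on 2-colour arrays. The deposited table holds 1 ratio per probe and animal for 23574 probes. Per the labels, DNase-treated total RNA was amplified and aminoallyl-labelled, and dye swaps were made. The authors' background correction, normalization, centring and combining of swaps are not given in the sources used here. Without the scanner intensities, which were left aside, no probe's signal over background is known, and precision is limited by the number of arrays. The deposited values were read as log10 ratios because they end at exactly -2 and 2, with column medians from -0.0042 to 0.0093. Multiplication by 3.32193 put them on the log2 scale.

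By GEO's annotation of the platform, 17824 probes had 1 symbol, 50 several and 5700 none. Probes of a gene were averaged (1150 genes had several), and the others were kept singly, giving 22218 features. The model held genotype and sex over 7 arrays and was fitted by lmFit and eBayes of limma 3.58.1 in R 4.3.3. Males alone and the genotype-by-sex interaction were fitted separately. Benjamini-Hochberg adjustment covered all features, and calls were made under 0.05. As a check of the code, the fit was also run on simulated data with independent noise and planted genotype differences. That run says nothing of the array with the wild-type female label or of correlation between arrays.

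The members and lists were chosen with earlier results of these data known. Named with values were the 8 complement and 8 coagulation members with the smallest p for genotype, the 5 of each for sex, the fibrinogen chains, called members and Zfp90. From each other pathway list the 3 genes with the smallest p for genotype and the 2 for sex were named, and marker lists are given by counts and medians. Mbl1, C6, Serpind1, C1qb, C1qc, Hc and C7 were added after their values were seen, for comparison with related genes. C8g was named by its p for genotype, and its sex difference was added in that same way. Alternatives were array centring, quantile normalization, males alone, a model without sex or without genotype, robust eBayes, named genes alone, single probes and leaving out each animal. Promoters are RefSeq sequences of GRCm38.p6, held for 32 of the 41 genes, and were cut to the 250 bases upstream. Neighbouring genes were read among protein-coding genes alone.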

Additional observations from a re-analysis of the deposited data

Results flagged for a closer look

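Of 80 genes examined in 2 groups each, the wild-type animals and the males, 13 group values stood apart from the rest of their group. Chance gives about 1 in 20 groups, but that rate does not hold here, since many of these genes were chosen for a small p by sex or genotype. In most of these the array with the wild-type female label stood apart from the 3 wild-type males, with which it also differs in sex.

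Among the members, Mbl2 read 0.42 on that array and -0.42 to -0.33 in the other wild-type animals. F12 read -0.44 in wild-type male 3 and 0.15 to 0.25 in the others. Fgb read 0.32 in transgenic male 2, apart from the other males at -0.10 to 0.01. Of other pathway genes, the array with the wild-type female label stood apart in Susd4 (-4.47), Procr (0.44), Nqo1 (0.58) and Apcs (0.96). Transgenic male 1 stood apart among the males in Apcs (0.22).

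Of the cell type markers, that female array stood apart in the macrophage receptor Marco (1.29), the endothelial Lyve1 (-0.65), the red cell Slc4a1 (0.031), and the pancreatic Cela1 (-2.47) and Prss1 (-0.16).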

How the results depend on the processing

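No complement or coagulation member was called by genotype under any alternative run, and no coagulation member by sex. With each animal left out, the median genotype difference ran from 0.01 to 0.14 for complement and from 0.06 to 0.12 for coagulation genes. Over all features, the genotype count of 0 became 7 in the males alone and ran from 0 to 7 with each animal left out, the 7 being the same fit as males alone when either female was left out. The sex count of 78 was 47 after quantile normalization and ran from 36 (without the array with the wild-type female label) to 254 (without the transgenic female). Wild-type males 2 and 4 and transgenic male 2 also moved it, to 39, 48 and 45 when left out. Complement members called by sex numbered 1 after quantile normalization and 0 to 3 with each animal left out. The complement median sex difference ran from -0.25 to -0.15. The cause of these shifts was not tested. Alternatives for single genes were run for those named by genotype or by sex, with C9, C6 and C8g. Among these, the genotype differences that changed sign were those of C8a (-0.078 after quantile normalization, -0.037 with no sex term, -0.27 in the males alone, -0.27 to 0.38 with each animal left out), Mcfd2 (0.022 in the males alone, -0.63 to 0.022), C9 (-0.32 to 0.20) and Fgb (-0.022 to 0.19). Sex differences that did so with an animal left out were those of F11 (-0.58 to 0.0027), C6 (-0.15 to 0.091) and C8g (-0.17 to 0.27). Without wild-type male 3, Mug1 and Serpina5 passed by sex (adjusted p = 0.0309 and 0.0324). Among single genes, 694 values under an alternative kept their direction and side of the threshold, 16 changed sign, 5 gained and 7 lost a call. No paired analysis was possible because the replicate numbers of the labels run within genotype and sex, and the only number shared by same-sex animals of the 2 genotypes is male 2. Signal over background is unknown for every probe.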
